A study of Mus musculus with 9 samples.

Results

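Imprinted genes are expressed mainly from the chromosome inherited from 1 parent. The 40 genes described here are a list of known mouse imprinted genes, matched by symbol to the gene identifiers of the count tables. The rule for membership uses no measured value, although the list was drawn up with earlier results of these data known. Of the 40, 35 had an identifier among the 37990 genes listed, and 30 had enough reads to be tested among 14465 tested genes. Rian, Mirg, Snrpn, Kcnq1ot1 and Peg13 were not analysed here, because no identifier in the tables was paired with them. Magel2, Airn, Kcnq1, Rasgrf1 and Dcn had too few reads for the test with all libraries and are given as values. Magel2 and Kcnq1 entered it when 1 library was left out.

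Imprinting is set by DNA methylation that differs between egg and sperm at short control regions. After fertilisation it is kept through rounds of replication by DNA methyltransferase 1 and by zinc finger proteins, such as ZFP57, that recruit the corepressor TRIM28. Most imprinted genes lie in clusters in which 1 control region sets the parental choice for several genes, and many of them control growth of the fetus and the placenta. Embryonic stem cells keep most imprints but can lose some in culture. Allele-specific expression was not measured in these libraries, so every value below is the sum over both alleles.

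The study sequenced total RNA of E14 mouse embryonic stem cells, a line kept undifferentiated on gelatin in serum with leukaemia inhibitory factor. Its question, from the title, is the role of Fam60a in a form of the Sin3a-Hdac complex, a corepressor that carries histone deacetylases. There were 3 groups of 3 libraries: cells with a stable lentiviral pLKO.1 short hairpin RNA against Fam60a, cells with one against Sin3a, and controls with a non-targeting scrambled hairpin. All 3 groups went through the same steps, namely virus with 10 µg/ml polybrene for 24 hours, 12 hours of recovery, selection for several days in 2 µg/ml puromycin, and 3 propagations before harvest. The medium held 1000 U/ml of leukaemia inhibitory factor in every group. The replicates were biological replicates per the labels, and whether more than 1 hairpin per gene was used is not stated there. The hairpin lowers its target without deleting it, and the cells are selected populations, so residual expression is part of each model.

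Each library held between 2607872 and 7674887 reads assigned to genes. Fam60a, now named Sinhcaf, fell from 13.5 ± 0.47 to 5.73 ± 0.75 counts per 1000000 reads (CPM, mean ± SD, n = 3, scaled by edgeR's trimmed mean of M-values) in the Fam60a knockdown. Sin3a fell from 287 ± 21.9 to 126 ± 13.4 CPM in the Sin3a knockdown and stood at 217 ± 9.90 CPM in the Fam60a knockdown (edgeR's quasi-likelihood test, adjusted p = 0.0964). Sin3a knockdown replicate 3 stood apart from the rest. It held 2607872 reads against 5511453 or more in every other library. Its log2 CPM correlated with those of the other Sin3a knockdown libraries at a mean r of 0.885 across genes, while this figure ranged over 0.935 to 0.981 elsewhere. Its values moved with the GC content of the transcripts, so calls are given with and without it, and fold changes for part of the genes. All 10 markers of embryonic stem cells were detected, and their sum ranged over 1987 to 2225 CPM (control), 1806 to 2000.2 CPM (Fam60a knockdown) and 1718 to 2075 CPM (Sin3a knockdown). Of the 10, 1 was called against control, Fgf4, which fell in the Sin3a knockdown (log2 fold change -0.39 ± 0.10, adjusted p = 0.0335). Fibroblast markers summed to 215 to 268 CPM (control), 254 to 273 CPM (Fam60a knockdown) and 279 to 446 CPM (Sin3a knockdown), the last wholly above control, and 0 of 12 were at 0 in all libraries. Vim was the largest part of these sums, at 145 to 154 CPM in controls and 214 to 338 CPM in the Sin3a knockdown. Of the other markers, Fbn1 lay wholly above control in the Sin3a knockdown, and Thy1, Pdgfrb and S100a4 lay wholly below. Of 8 tested, 1 rose in the Fam60a knockdown, S100a4, and in the Sin3a knockdown Vim and Fbn1 rose and Thy1 fell. Of all genes, 1.49% rose and 1.44% fell in the Fam60a knockdown, and 3.91% rose and 6.28% fell in the Sin3a knockdown. Without Sin3a knockdown replicate 3, 2 fibroblast markers rose and 2 fell in each knockdown. The part of these cells in the results was not tested.

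Sequence around the start sites is shown for the genes that passed the test, because Peg3 and Usp29 are read in opposite directions from neighbouring start sites and Phlda2 and Ddc differ in CG content. All sequences are from RefSeq on GRCm38.p6, are printed 5′ to 3′ along the minus strand, and carry each CG, the dinucleotide at which mammalian DNA is methylated, in capitals. The first is the 163 bases between the start of Peg3 and the start of Usp29 (chr7:6730420-6730582). It holds 5 CG. The others are the 250 bases before the start of Phlda2 (chr7:143502525-143502774), with 21 CG, and the 250 bases before each of the starts listed for Ddc (chr11:11898145-11898394 and chr11:11890409-11890658), with 1 and 4 CG. RefSeq starts are not always those of GENCODE M21, from which gene spans and start distances are given below: the Phlda2 stretch lies inside the longer GENCODE span of that gene, and the starts of Peg3 and Usp29 differ by a few bases.
Peg3 to Usp29: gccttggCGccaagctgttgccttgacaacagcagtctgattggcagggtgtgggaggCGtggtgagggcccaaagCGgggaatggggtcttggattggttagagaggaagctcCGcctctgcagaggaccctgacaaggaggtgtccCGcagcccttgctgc
Phlda2: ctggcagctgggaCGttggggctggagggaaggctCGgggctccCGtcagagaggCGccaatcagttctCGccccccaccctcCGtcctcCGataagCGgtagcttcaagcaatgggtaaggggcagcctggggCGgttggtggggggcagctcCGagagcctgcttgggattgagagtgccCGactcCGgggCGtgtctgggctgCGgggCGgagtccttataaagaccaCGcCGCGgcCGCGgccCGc
Ddc, upstream start: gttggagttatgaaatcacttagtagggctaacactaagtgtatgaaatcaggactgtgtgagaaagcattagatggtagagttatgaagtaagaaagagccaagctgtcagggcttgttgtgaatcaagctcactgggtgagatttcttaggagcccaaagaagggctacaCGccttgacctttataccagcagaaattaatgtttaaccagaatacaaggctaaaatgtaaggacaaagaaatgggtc
Ddc, downstream start: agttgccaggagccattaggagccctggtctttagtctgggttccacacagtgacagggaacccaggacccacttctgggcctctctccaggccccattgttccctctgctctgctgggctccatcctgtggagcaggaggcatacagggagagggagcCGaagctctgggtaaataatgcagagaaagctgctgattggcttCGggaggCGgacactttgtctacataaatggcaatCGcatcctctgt

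Windows from 250 bases before to 50 bases after a start were held for 32 of the 40 genes, 48 windows in all. The Phlda2 window held 26 CG, the Peg3 window 13, the Usp29 window 17 and the Ddc windows 2 and 5, against a median of 7 over all 32851 windows of the mouse genome. The windows of Peg3 and Usp29 share 263 bases. Windows were searched on both strands for TGCCGC, the methylated hexamer bound by ZFP57, for GCCATNTT, a motif of YY1, and for CACGTG, the E-box of MYC, MAX and MXD proteins. None of these motifs can stand wholly inside another. TGCCGC was in 11 of the 48 windows (22.9%) against 11.6% of all windows. GCCATNTT was in 2 of 48 (4.17%) against 6.05%, and CACGTG in 2 of 48 (4.17%) against 7.15%. The windows of Peg3, Usp29, Phlda2 and Ddc held none of these letters, and a match or its lack is a description of the window only.

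Imprinted genes spanned a wide range of levels in control cells. Levels of different genes are compared per length, as reads per kilobase of merged exons per 1000000 reads (RPKM). The median control level of the 30 tested imprinted genes was 9.81 RPKM against 10.9 RPKM over 14126 tested genes with a length, and 14 of the 35 genes with an identifier lay above the latter. At the top stood Peg10, a retrotransposon-derived gene needed for the placenta, at 65.1 ± 4.40 RPKM (SD, n = 3), and Phlda2, a brake on placental growth, at 45.3 ± 0.61 RPKM. Cd81, a tetraspanin, followed at 43.3 ± 2.29 RPKM and Tssc4 at 37.6 ± 1.24 RPKM. H19, a growth-restraining noncoding RNA, reached 35.6 ± 15.0 RPKM and Igf2r, the receptor that clears IGF2, 33.2 ± 8.51 RPKM.

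Between 28.5 and 33.2 RPKM lay Mest, Impact and Grb10 together with Igf2r. Zdbf2, Gnas, Slc22a18, Ddc and Trappc9 held 19.7, 14.5, 13.8, 12.8 and 12.7 RPKM in that order. From 9.82 RPKM down to 5.48 RPKM came Meg3, Zrsr1, Ascl2, Mkrn3, Peg3, Igf2, Ube3a and Ndn. Dlk1, Nnat, Plagl1 and Sgce stood at 3.36, 2.12, 1.85 and 1.31 RPKM. All the rest lay under 1 RPKM, from Asb4 at 0.575 RPKM through Nap1l5, Magel2, Kcnq1, Usp29, Zim1 and Airn to Dcn at 0.033 RPKM and Rasgrf1 at 0. In 23 of the 34 steps of this order the control libraries of neighbouring genes overlapped, so those neighbours do not differ beyond their spread.

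**Figure D1:**
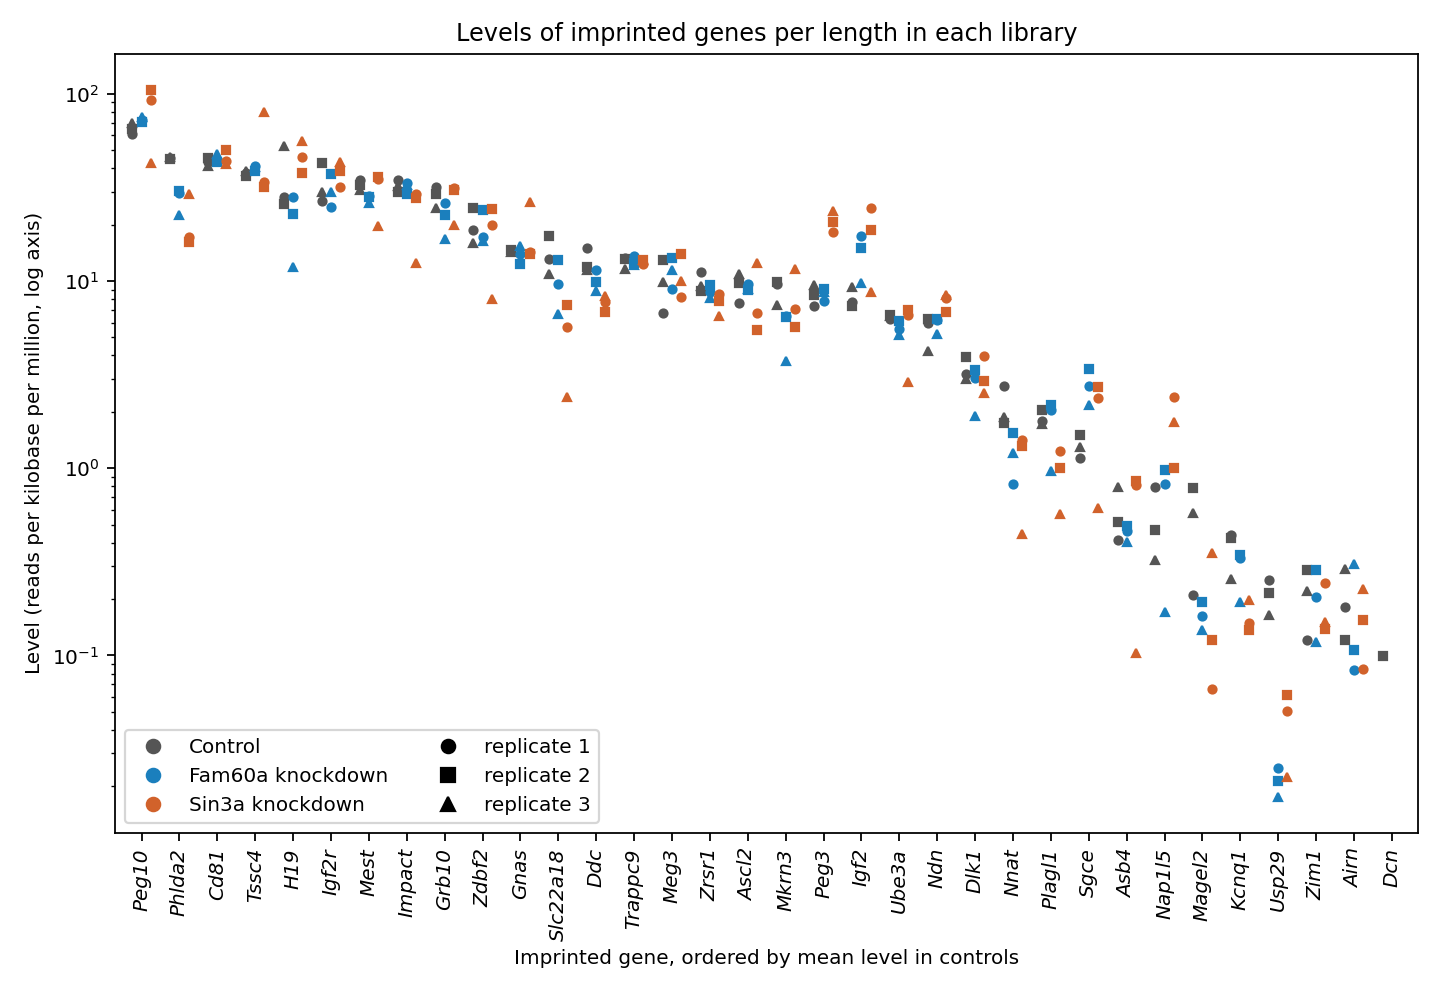
Level of each imprinted gene in RPKM (log axis) in each of 9 libraries, genes ordered by their mean in controls, colour for the group and shape for the replicate. Values of 0 have no point on the log axis, and Rasgrf1, at 0 in all libraries, is left out. Peg10 leads the order at 65.1 RPKM in controls, and Usp29 drops in both knockdowns while Peg3 stands higher in the Sin3a knockdown.

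Few of the tested imprinted genes passed the test in either knockdown (edgeR's quasi-likelihood test over all 14465 genes, called at a Benjamini-Hochberg adjusted p under 0.05). Against control, the Fam60a knockdown had 0 of 30 higher, where 1.49% of all genes were called higher, and 1 of 30 lower, Usp29, where 1.44% were called lower. The Sin3a knockdown had 1 of 30 higher, Peg3, beside 3.91% of all genes, and 3 of 30 lower, Usp29, Phlda2 and Ddc, beside 6.28% of all genes. Between the knockdowns 1 of 30 was higher in the Sin3a knockdown, Peg3, beside 0.878% of all genes, and 0 of 30 were lower, beside 2.18%. At an unadjusted p under 0.05 the counts were 4, 9 and 5 of 30 genes in the same order of comparisons. That is 13.3%, 30.0% and 16.7% of the imprinted genes, against 15.7%, 25.9% and 18.1% of all tested genes.

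These shares lie near the background and are not a result about imprinted genes as a group. The median log2 fold change of the 30 genes was -0.08 in Fam60a knockdown cells and -0.07 in Sin3a knockdown cells, against -0.02 and -0.01 over all genes. Both comparisons share the same 3 control libraries. With the replicate number as a block, the share of all genes called was 6.13% and 15.0% against control and 4.65% between the knockdowns. The block gave 1, 5 and 1 imprinted genes, adding Slc22a18 in the Sin3a knockdown.

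Leaving out Sin3a knockdown replicate 3 raised the counts of all genes and of imprinted genes. Then 5 of 32 imprinted genes were called in the Fam60a knockdown against 16.9% of all genes, 9 of 32 in the Sin3a knockdown against 24.5%, and 5 of 32 between the knockdowns against 14.7%. The 5 in the Fam60a knockdown were Sgce and Igf2, which rose, and Usp29, Phlda2 and Mest, which fell. In the Sin3a knockdown Peg3, Igf2, Peg10 and Sgce rose, while Usp29, Phlda2, Ddc, Slc22a18 and Magel2 fell. Between the knockdowns Peg3, Mest and Peg10 were higher in the Sin3a knockdown, and Phlda2 and Tssc4 lower. Some uncalled log2 fold changes of the Sin3a knockdown against control moved too. Without this replicate Mest, Ube3a and Zdbf2 stood at 0.13, 0.07 and 0.16, against -0.10, -0.23 and -0.17 with all libraries. Gnas stood at -0.04 (0.32 with all libraries), Impact at -0.18 (-0.47) and Mkrn3 at -0.49 (-0.17).

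Separation of libraries was more frequent than calls, as it was for genes in general. In the Fam60a knockdown, 3 of 30 genes had all 3 libraries above all controls (16.2% of all genes) and 6 had all below (18.2% of all genes). In the Sin3a knockdown, 3 were wholly above (14.7%) and 8 wholly below (18.5%). Since the replicate numbers were taken to pair the libraries, differences were also read within each number. In the Fam60a knockdown 5 of 30 genes were higher (31.6% of all genes) and 12 lower (35.5%) than control in all 3 numbers, and in the Sin3a knockdown 6 were higher (22.5%) and 8 lower (27.1%).

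**Figure D2:**
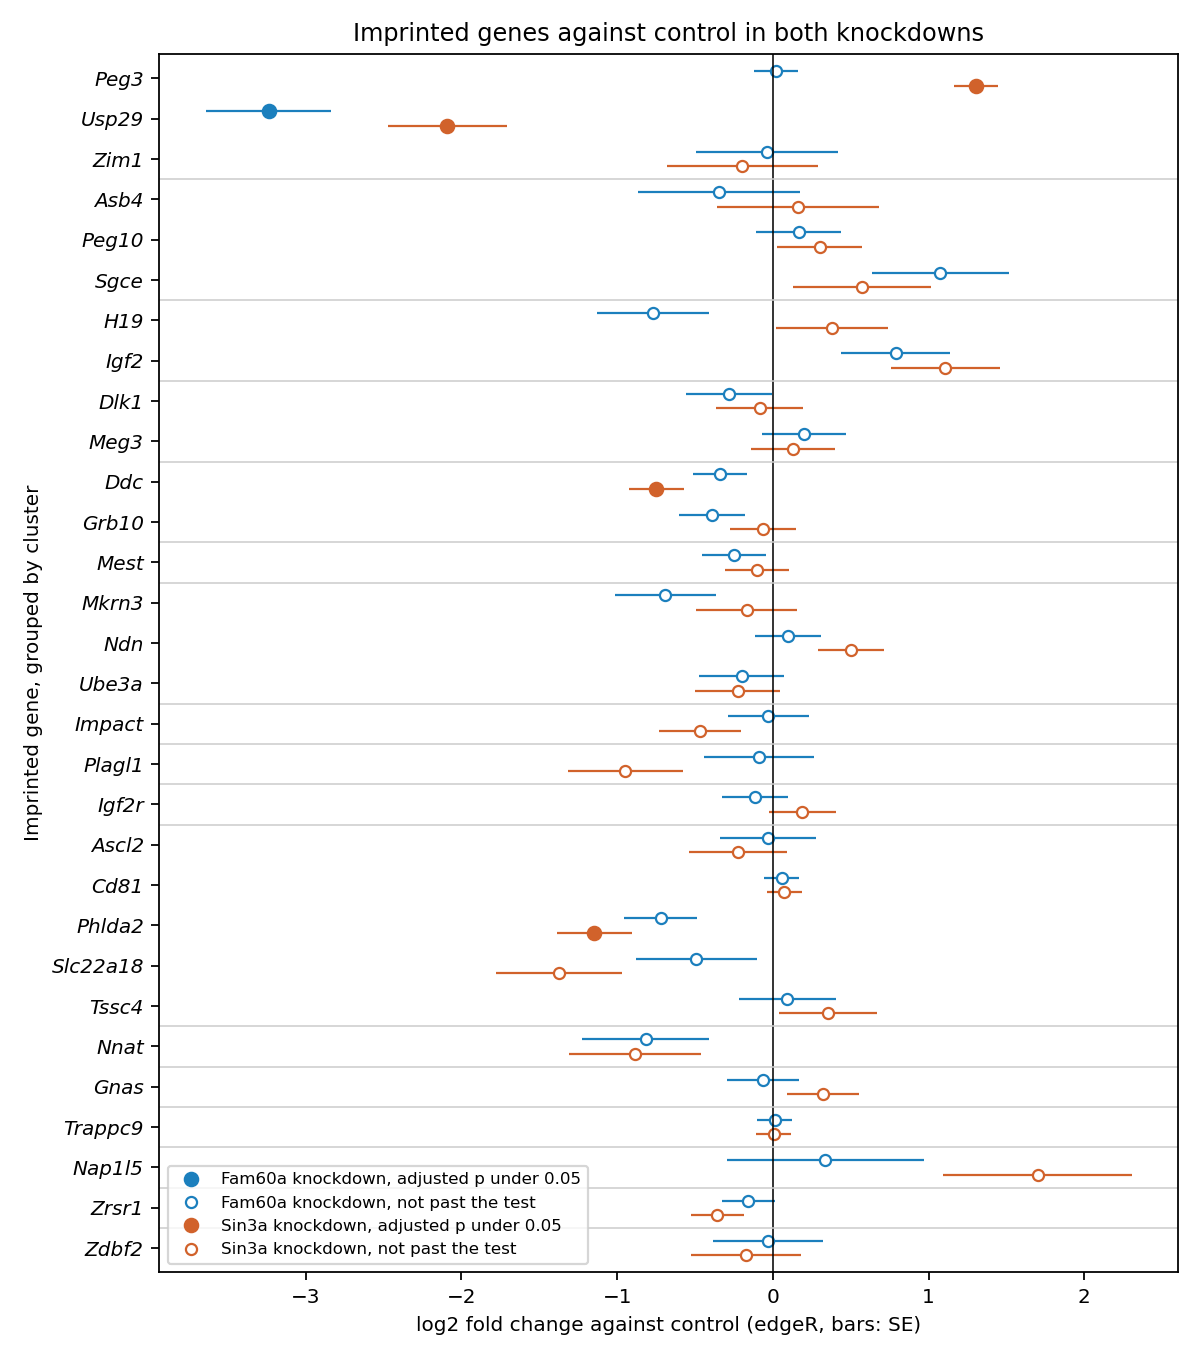
Fitted log2 fold change against control with its standard error for the 30 tested imprinted genes, grouped by cluster, blue for the Fam60a knockdown and orange for the Sin3a knockdown, filled where the adjusted p is under 0.05. Only Usp29 is filled in blue, and Peg3, Usp29, Phlda2 and Ddc are filled in orange.

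The Peg3 domain on proximal chromosome 7 held the 2 genes with the largest called changes, which went in opposite directions in the Sin3a knockdown although they start back to back. Peg3 encodes a large zinc finger protein read from the paternal allele (chr7:6703892-6730431, minus strand), and Usp29, a paternally expressed ubiquitin-specific protease gene, runs the other way (chr7:6730578-6967219). Their annotated start sites are 147 bases apart in GENCODE M21 on GRCm38, across the first sequence printed above. Zim1, a maternally expressed zinc finger gene, starts 33981 bases from Peg3.

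Peg3 gave 97.9, 112 and 128 CPM in control replicates 1 to 3. It gave 105, 120.5 and 117 CPM in Fam60a knockdown cells and 242, 276 and 316 CPM in Sin3a knockdown cells. The Sin3a knockdown libraries all lay above every other library, and those of the Fam60a knockdown fell within the control range. On the log2 scale the rise in the Sin3a knockdown was 1.30 ± 0.14 (SE), with an adjusted p of 0.00204 in edgeR's quasi-likelihood test. The difference within each replicate number was 1.30, 1.30 and 1.31. The Fam60a knockdown differed from control by 0.02 ± 0.14 (adjusted p = 0.993), and the Sin3a knockdown exceeded the Fam60a knockdown by 1.28 ± 0.14 (adjusted p = 0.00632). Fitted on the 6 libraries of the knockdowns alone, that last difference had an adjusted p of 0.0614.

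Usp29 had few reads and lost most of them in both knockdowns. Its reads numbered 28, 27 and 20 in the controls, 3, 3 and 2 in Fam60a knockdown cells and 6, 6 and 1 in Sin3a knockdown cells. As CPM these were 4.56, 3.90 and 2.98 in controls, 0.453, 0.385 and 0.316 in Fam60a knockdown cells and 0.915, 1.11 and 0.406 in Sin3a knockdown cells. No knockdown library reached the lowest control. The mean stood at 10.1% of control in Fam60a knockdown cells and at 21.3% in Sin3a knockdown cells. Only the control libraries held enough reads of Usp29 for the filter. It thus entered the test through the group where it is high, and a call could hardly go the other way.

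The log2 fold change of Usp29 was -3.24 ± 0.40 in the Fam60a knockdown (edgeR, adjusted p = 0.0100) and -2.09 ± 0.38 in the Sin3a knockdown (adjusted p = 0.0117). The knockdowns differed from each other by 1.15 ± 0.48 (adjusted p = 0.285). Single libraries decided these calls: the Fam60a call had an adjusted p of 0.0555 without control replicate 1 and 0.0505 without Fam60a knockdown replicate 2. The Sin3a call had 0.0553 without control replicate 1 and 0.0509 without control replicate 2. With no filter on low counts, the log2 fold changes were -3.20 ± 0.47 in the Fam60a knockdown (edgeR, adjusted p = 0.00691) and -2.06 ± 0.45 in the Sin3a knockdown (adjusted p = 0.0191). Usp29 overlaps Zim3 on the opposite strand, and the counting was strand-specific. Zim1 ranged from 0.977 to 2.31 CPM in controls and from 0.949 to 2.31 CPM in the knockdowns, and its groups overlapped.

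**Figure D3:**
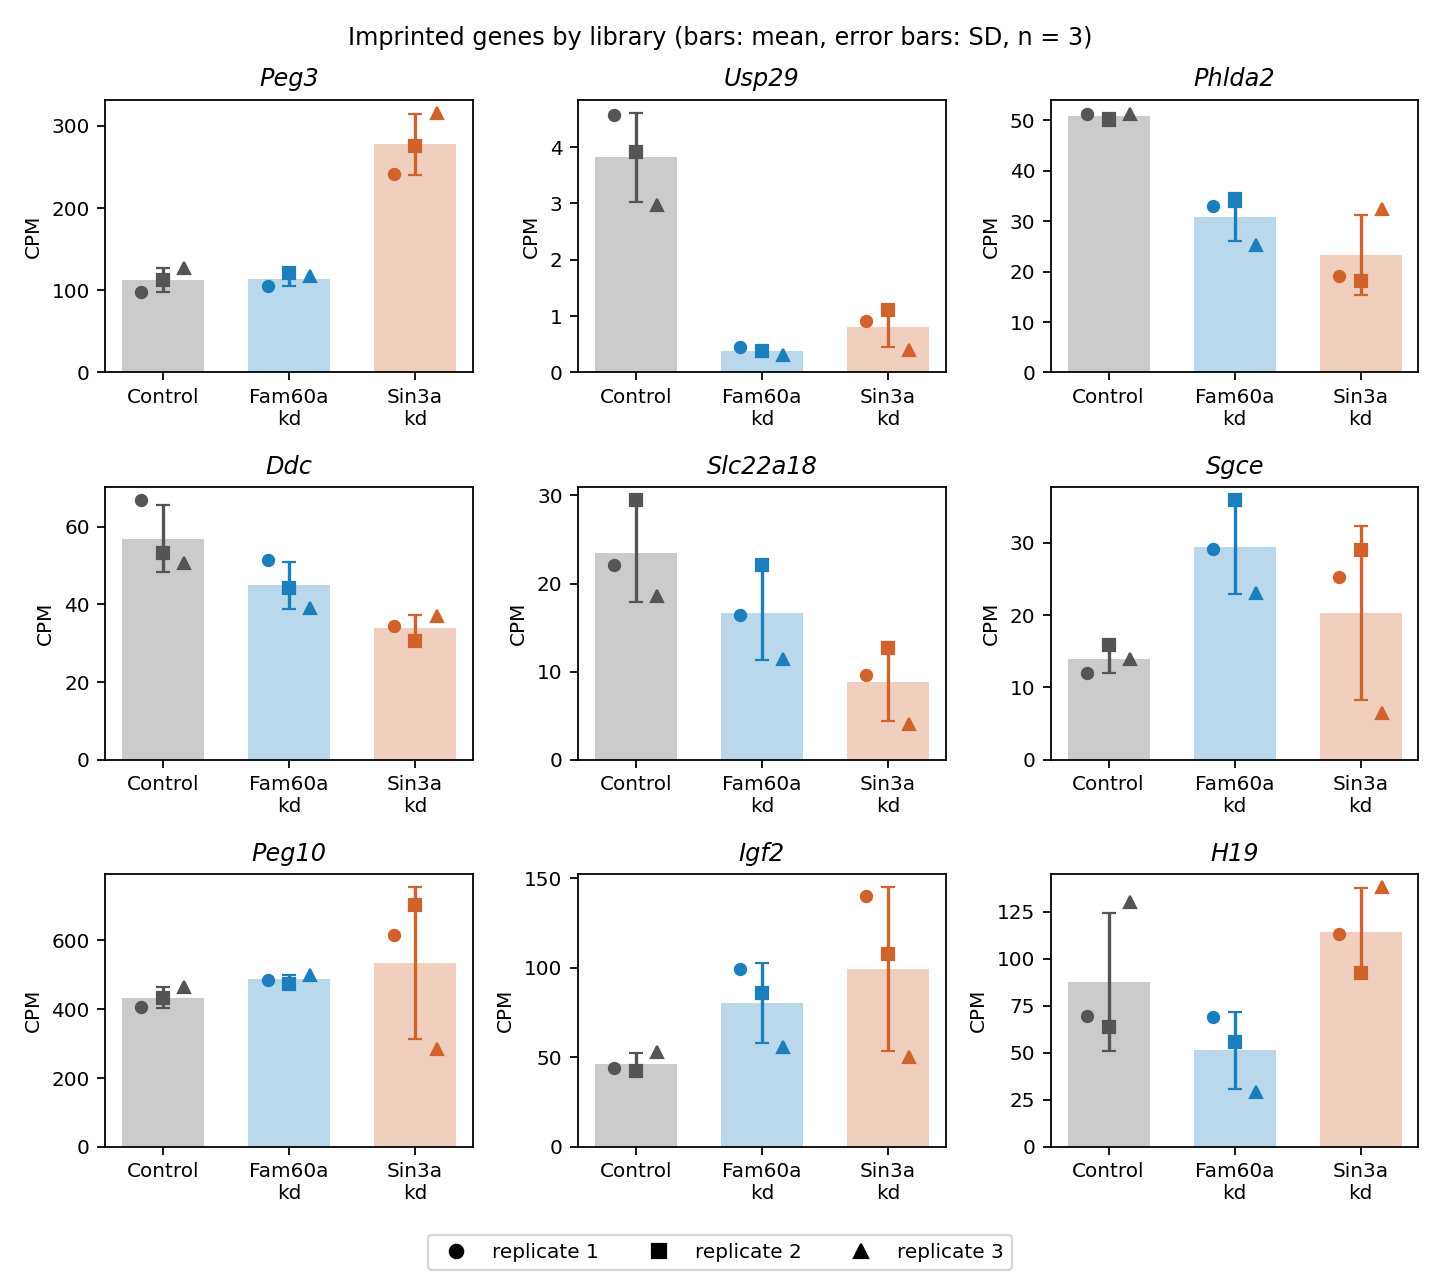
CPM by library for 9 imprinted genes in controls (grey), Fam60a knockdown (blue) and Sin3a knockdown (orange), with bars for the mean, error bars for the SD of 3 libraries and a point shape for each replicate. Peg3 is high in all 3 Sin3a knockdown libraries (242 to 316 CPM), Usp29 is low in all 6 knockdown libraries, and for Sgce, Peg10 and Igf2 the triangle of Sin3a knockdown replicate 3 lies well under the other replicates.

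In the Kcnq1 domain on distal chromosome 7, Phlda2 fell in the Sin3a knockdown and the neighbouring Slc22a18 was low in the same libraries. These genes are normally read from the maternal allele, and the noncoding RNA Kcnq1ot1 silences them on the paternal one. Phlda2 (chr7:143501545-143503150) encodes a small protein with a pleckstrin homology domain that restrains placental growth, and Slc22a18 (chr7:143473736-143499334) encodes a transporter. Their start sites are 29414 bases apart.

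Phlda2 gave 51.2, 50.0 and 51.3 CPM in controls. The Fam60a knockdown gave 33.1, 34.0 and 25.3 CPM, and the Sin3a knockdown 19.2, 18.2 and 32.5 CPM. All 6 knockdown libraries lay below all 3 controls, and Sin3a knockdown replicate 3 was the highest of its group. Phlda2 changed by -1.15 ± 0.24 on the log2 scale in the Sin3a knockdown (edgeR, adjusted p = 0.0203), and the Fam60a knockdown gave -0.72 ± 0.24 (adjusted p = 0.157, and 0.0442 in DESeq2). Without Sin3a knockdown replicate 3 it was -1.44 ± 0.15 (adjusted p = 0.000462) and -0.71 ± 0.12 (adjusted p = 0.00614). Leaving out any 1 control, or replicate 1 or 2 of the Sin3a knockdown, ended the Sin3a call, with adjusted p values up to 0.0893.

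Slc22a18 gave 22.2, 29.5 and 18.6 CPM in controls and 9.60, 12.6 and 4.06 CPM in the Sin3a knockdown. It gave 16.5, 22.1 and 11.4 CPM in the Fam60a knockdown. These values overlapped the controls over all libraries but were lower within each replicate number, by log2 differences of -0.42, -0.41 and -0.69, and the fit with the replicate block gave -0.52 ± 0.21 (edgeR, adjusted p = 0.232). The Sin3a libraries lay wholly below control, at a mean of 37.4% of its level. In the fit this was a log2 fold change of -1.37 ± 0.40 (edgeR, adjusted p = 0.0644, and 0.00833 in DESeq2). With the replicate block it was -1.45 (adjusted p = 0.0106), and without Sin3a knockdown replicate 3 it was -1.08 ± 0.31 (adjusted p = 0.0331).

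The other genes of the domain did not pass the test. Ascl2, a basic helix-loop-helix factor of placental progenitors, ranged over 12.4 to 17.7 CPM in controls and over 8.91 to 20.3 CPM in the knockdowns. Cd81 stayed between 118 and 145 CPM in all 9 libraries, and its log2 fold changes were 0.06 ± 0.11 and 0.07 ± 0.11. Tssc4 gave 62.4 and 58.7 CPM in replicates 1 and 2 of the Sin3a knockdown and 148 CPM in replicate 3, against 67.1 to 71.7 CPM in controls. Without replicate 3 Tssc4 was lower in the Sin3a than in the Fam60a knockdown by -0.30 ± 0.08 (edgeR, adjusted p = 0.0401), while all 9 libraries gave 0.26 ± 0.31. Kcnq1, a potassium channel gene too low to be tested, held 30 reads over the controls, 25 over the Fam60a knockdown and 9 over the Sin3a knockdown. Its Sin3a knockdown libraries lay below all controls. Kcnq1 overlaps Kcnq1ot1 on the opposite strand.

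Trophoblast markers summed to 99.0 to 195 CPM in controls, 162 to 238 CPM in Fam60a knockdown cells and 117 to 387 CPM in Sin3a knockdown cells, with 0 of 12 at 0 in all libraries. The sum of 387 CPM was that of Sin3a knockdown replicate 3, with Krt8 at 125 and Krt18 at 158 CPM. Replicates 1 and 2 summed to 128 and 117 CPM, within the control range. Of 8 tested, 0 passed the test in any comparison with all libraries, where 0.878% to 6.28% of all genes were called in a given direction. When Sin3a knockdown replicate 3 was left out, 3 rose and 0 fell in the Fam60a knockdown, 1 rose and 1 fell in the Sin3a knockdown, and 0 rose and 1 fell between the knockdowns. Of all genes, 16.9%, 24.5% and 14.7% were then called in either direction. The part of trophoblast cells in the values of Phlda2, Slc22a18 and Ascl2 was not tested. In bulk RNA, fewer cells of a type and less RNA per cell cannot be told apart.

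**Figure D4:**
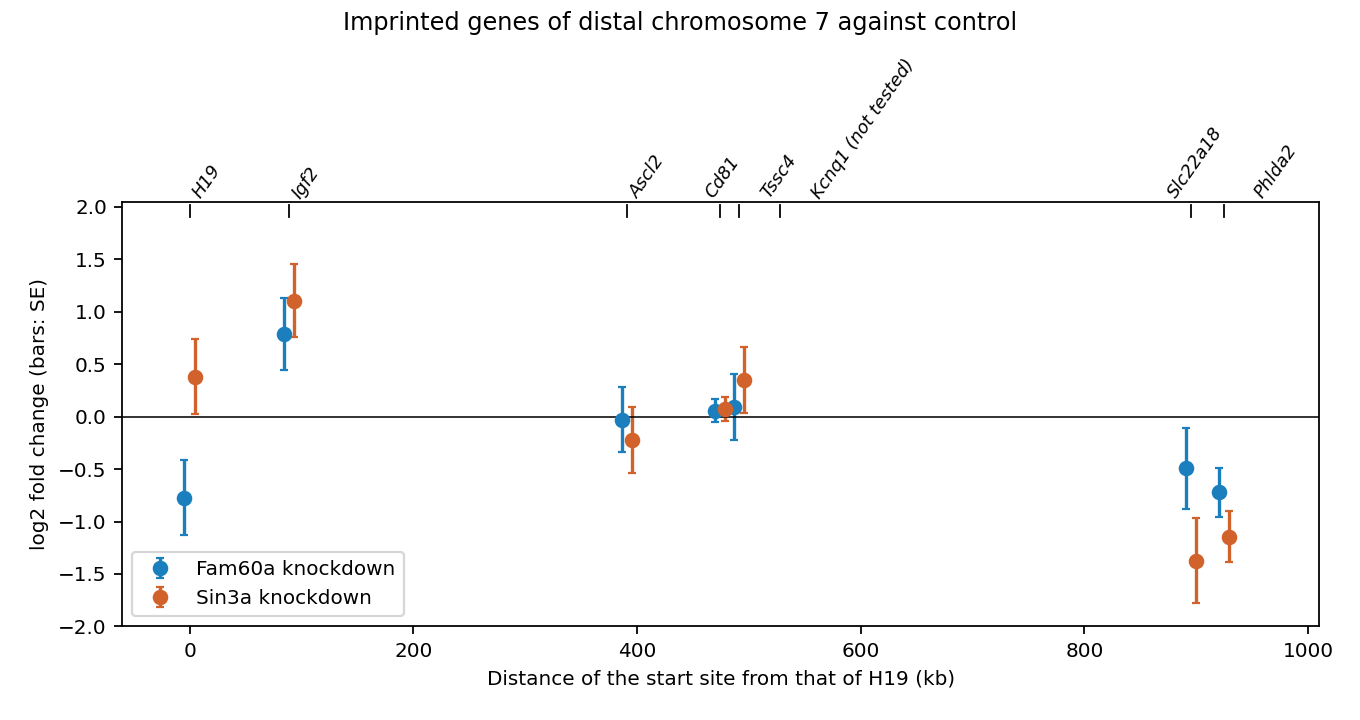
Log2 fold change against control, with its standard error, for imprinted genes of distal chromosome 7 by the distance of their start site from that of H19 in kilobases, blue for the Fam60a knockdown and orange for the Sin3a knockdown. Slc22a18 and Phlda2, 896 and 925 kb from H19, lie below 0 in both knockdowns, Igf2 lies above 0, and H19 lies below 0 in blue and above 0 in orange.

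Elsewhere on distal chromosome 7, neither Igf2 nor H19 was called against control by edgeR on all 9 libraries, while DESeq2 called Igf2 in the Sin3a knockdown. Igf2 encodes the fetal growth factor IGF2 from the paternal allele, and H19 is read from the maternal allele 88673 bases away, with a control region between them that lets only 1 of the pair use shared enhancers. Igf2 gave 44.1, 42.2 and 53.0 CPM in controls, 99.4, 85.6 and 55.7 CPM in the Fam60a knockdown, and 140.1, 108 and 50.0 CPM in the Sin3a knockdown. Replicates 1 and 2 of both knockdowns were above all controls, while replicate 3 lay just above the highest control in Fam60a knockdown cells and within the control range in Sin3a knockdown cells. Fitted log2 fold changes were 0.79 ± 0.35 (edgeR, adjusted p = 0.318) and 1.11 ± 0.35 (adjusted p = 0.0811) in the Fam60a and the Sin3a knockdown. DESeq2 gave 1.12 in the Sin3a knockdown (adjusted p = 0.0201). Leaving out Sin3a knockdown replicate 3, these became 0.80 ± 0.21 (adjusted p = 0.0356) and 1.42 ± 0.23 (adjusted p = 0.00387).

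H19 gave 69.4, 63.5 and 130.1 CPM in controls, 69.0, 55.8 and 29.1 CPM in the Fam60a knockdown, and 113, 92.3 and 138 CPM in the Sin3a knockdown. The groups overlapped in each comparison with control, although within the replicate numbers H19 was lower in 3 of 3 in the Fam60a knockdown and higher in 3 of 3 in the Sin3a knockdown. Its log2 fold change was -0.77 ± 0.36 in the Fam60a knockdown (edgeR, adjusted p = 0.353) and 0.38 ± 0.36 in the Sin3a knockdown (adjusted p = 0.538). The knockdowns differed by 1.15 ± 0.36, with an adjusted p of 0.134 in edgeR and 0.0300 in DESeq2.

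The sum of markers of primitive endoderm, an extraembryonic lineage that arises in stem cell cultures, stood highest in replicate 3 of every group. Their sum was 1168, 1439.6 and 2584 CPM in controls, 2364, 2342 and 3418 CPM in the Fam60a knockdown, and 2794, 2678 and 4778 CPM in the Sin3a knockdown. In Sin3a knockdown replicate 3, whose values moved with GC content, Lama1 (1766 CPM) and Lamb1 (1102 CPM) were the largest parts. Dab2 was lowest of its group there, at 139 against 209 and 150 CPM. Pdgfra, at 339 CPM, lay between replicates 1 and 2 (346 and 327 CPM). The other markers were highest of their group in that library. Of 15 markers 0 were at 0 in all libraries. Of 12 tested 0 were called in Fam60a knockdown cells, where 1.49% of all genes rose and 1.44% fell. In Sin3a knockdown cells 1 rose, Gata6, where 3.91% of all genes rose and 6.28% fell. When Sin3a knockdown replicate 3 was left out, 1 rose in each, where 16.9% and 24.5% of all genes were called in either direction. H19 was highest in the replicate 3 libraries of the control and the Sin3a knockdown and lowest in that of the Fam60a knockdown. The part of these cells in the values of H19 and Igf2 was not tested.

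Igf2r, the receptor that carries IGF2 to lysosomes, ranged over 249.7 to 399 CPM in controls, 231 to 348 CPM in Fam60a knockdown cells and 296 to 402 CPM in Sin3a knockdown cells, with log2 fold changes of -0.12 ± 0.21 and 0.19 ± 0.21. Airn, the paternal antisense RNA that silences Igf2r in other tissues, held 14, 12 and 7 reads in the 3 groups. The libraries of the groups overlapped for both genes.

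In the Grb10 cluster on chromosome 11, Ddc fell in the Sin3a knockdown and Grb10 did not pass the test. Ddc (chr11:11814101-11898144) encodes the decarboxylase that makes dopamine and serotonin, and its imprinted expression is known from the developing heart. It gave 67.0, 53.2 and 50.8 CPM in controls, 51.4, 44.3 and 39.2 CPM in the Fam60a knockdown, and 34.5, 30.6 and 37.0 CPM in the Sin3a knockdown. The Sin3a knockdown lay wholly below control, at 59.7% of its mean. The Fam60a knockdown overlapped control but was lower within each replicate number, by log2 differences of -0.38, -0.26 and -0.37, with -0.34 ± 0.15 in the fit with the replicate block (edgeR, adjusted p = 0.255). The log2 fold change was -0.75 ± 0.18 (edgeR, adjusted p = 0.0285), and -0.80 ± 0.16 (adjusted p = 0.00779) without Sin3a knockdown replicate 3. Leaving out any 1 control, Fam60a knockdown replicate 2, or Sin3a knockdown replicate 1 or 2 ended the call, with an adjusted p of up to 0.148.

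Grb10, an adaptor that dampens insulin and growth factor signalling, gave 223 to 288 CPM in controls. It ranged over 153 to 236 CPM in the Fam60a knockdown (log2 fold change -0.39 ± 0.21, adjusted p = 0.454) and over 181 to 284 CPM in the Sin3a knockdown (-0.06 ± 0.21, adjusted p = 0.881). Within the replicate numbers Grb10 was lower in the Fam60a knockdown by log2 differences of -0.29, -0.38 and -0.54. With the replicate block the fit gave -0.41 ± 0.10 there (edgeR, adjusted p = 0.0714) and -0.08 ± 0.10 in the Sin3a knockdown (adjusted p = 0.611). Neural markers, a cell type in which Ddc is also active, summed to 433 to 461 CPM in controls, 314 to 335 CPM in Fam60a knockdown cells and 314 to 351 CPM in Sin3a knockdown cells, and 0 of 9 were at 0 in all libraries. Of 7 tested, 2 fell in Fam60a knockdown cells, Elavl3 and Tubb3, where 1.44% of all genes fell. In Sin3a knockdown cells 3 fell, Elavl3, Pax6 and Tubb3, beside 6.28% of all genes, and 0 rose in either. Stmn2, the largest part of these sums, held 156 to 182 CPM in controls. It held 144 to 165 CPM in Fam60a knockdown cells and 155 to 163 CPM in Sin3a knockdown cells. Without Sin3a knockdown replicate 3, 4 of these markers fell in each, where 16.9% and 24.5% of all genes were called in either direction. Their part in the fall of Ddc was not tested.

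On proximal chromosome 6, Peg10 and Sgce also start back to back, 99 bases apart, and both are paternally expressed. Sgce encodes epsilon-sarcoglycan, a membrane protein of muscle and brain. It gave 12.1, 15.9 and 13.9 CPM in controls, 29.2, 35.9 and 23.1 CPM in the Fam60a knockdown, and 25.3, 29.0 and 6.50 CPM in the Sin3a knockdown. The Fam60a knockdown lay wholly above control, and the Sin3a knockdown had 2 libraries above and replicate 3 below. Its log2 fold change was 1.08 ± 0.44 in the Fam60a knockdown (edgeR, adjusted p = 0.272) and 0.57 ± 0.44 in the Sin3a knockdown (adjusted p = 0.452). Leaving out Sin3a knockdown replicate 3, it was 1.09 ± 0.19 (adjusted p = 0.00580) and 0.96 ± 0.21 (adjusted p = 0.0112).

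Peg10 gave 406, 431 and 464 CPM in controls and 486, 473 and 501 CPM in the Fam60a knockdown. In the Sin3a knockdown it gave 615, 702 and 283 CPM. Replicates 1 and 2 of the Sin3a knockdown were the highest of all 9 libraries and replicate 3 the lowest. The log2 fold change was 0.17 ± 0.27 (edgeR, adjusted p = 0.938) in the Fam60a knockdown and 0.30 ± 0.27 (adjusted p = 0.52) in the Sin3a knockdown. Without that replicate 3 the latter was 0.60 ± 0.08 (adjusted p = 0.00111). Asb4, a maternally expressed gene of the same cluster, ranged over 1.63 to 3.13 CPM in controls, and its groups overlapped.

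Further along chromosome 6, Mest, a paternally expressed gene of the alpha/beta hydrolase fold family, gave 137, 129 and 121 CPM in controls and 112, 111 and 102 CPM in the Fam60a knockdown. The Sin3a knockdown gave 139, 142 and 77.6 CPM. The Fam60a libraries lay below all controls by a small margin, and the log2 fold change was -0.25 ± 0.21 (edgeR, adjusted p = 0.706). Without Sin3a knockdown replicate 3, whose spread enters the shared model, it was -0.24 ± 0.06 (adjusted p = 0.0346). In the Sin3a knockdown the log2 fold change was -0.10 ± 0.21 (adjusted p = 0.786).

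The cluster of Snrpn and Ube3a on central chromosome 7, deleted or silenced in Prader-Willi and Angelman syndromes, had 3 tested genes and 0 calls. Ndn, a paternally expressed MAGE-family growth suppressor of neurons, gave 22.0, 23.1 and 15.6 CPM in controls and 29.9, 25.3 and 31.3 CPM in the Sin3a knockdown. These lay above all controls, with a log2 fold change of 0.50 ± 0.21 (edgeR, adjusted p = 0.172). In the Fam60a knockdown Ndn gave 22.8, 23.1 and 19.1 CPM, within the control range (0.10 ± 0.21, adjusted p = 0.96).

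Mkrn3, a paternally expressed RING finger gene, went the other way, with 24.6, 25.3 and 18.9 CPM in controls and 16.6, 16.4 and 9.49 CPM in the Fam60a knockdown. All 3 lay below control, at a log2 fold change of -0.69 ± 0.32 (edgeR, adjusted p = 0.353). The Sin3a knockdown gave 18.0, 14.5 and 29.7 CPM, 2 below and 1 above the controls (-0.17 ± 0.32, adjusted p = 0.774). Ube3a, the ubiquitin ligase of Angelman syndrome and imprinted in neurons only, gave 129, 136 and 133 CPM in controls and 114, 126 and 107 CPM in the Fam60a knockdown (log2 fold change -0.20 ± 0.27, adjusted p = 0.908). It gave 135, 144 and 59.3 CPM in the Sin3a knockdown (-0.23 ± 0.27, adjusted p = 0.637). Ube3a overlaps Snhg14 on the opposite strand.

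Magel2, another MAGE-family gene, was too low to be tested with all libraries. It held 6, 25 and 18 reads in controls, 5, 7 and 4 in Fam60a knockdown cells and 2, 3 and 4 in Sin3a knockdown cells. Over each group these come to 2.50 CPM, unscaled, in controls (exact Clopper-Pearson 95% interval 1.85 to 3.31), 0.781 (0.446 to 1.27) and 0.613 (0.280 to 1.16). The intervals cover counting error only. Scaled values were 0.977 to 3.61 CPM in controls and 0.632 to 0.898 CPM in the Fam60a knockdown. Those of the Sin3a knockdown, 0.305, 0.557 and 1.62 CPM, overlapped the controls. Without Sin3a knockdown replicate 3, the highest of its group, Magel2 entered the test, through control libraries alone. Its log2 fold change was then -2.49 ± 0.68 in the Sin3a knockdown (edgeR, adjusted p = 0.0278) and -1.64 ± 0.51 in the Fam60a knockdown (adjusted p = 0.0589). With all libraries and no filter it was -1.80 ± 0.66 (adjusted p = 0.144) and -1.61 ± 0.59 (adjusted p = 0.248).

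Of 8 tested genes with no other listed gene in their cluster, 1 had Sin3a knockdown libraries wholly above the controls (14.7% of all genes) and 4 wholly below (18.5% of all genes). None of these 5 passed the test. Plagl1, a zinc finger regulator of other imprinted genes, gave 14.0, 15.9 and 13.4 CPM in controls and 9.60, 7.80 and 4.47 CPM in the Sin3a knockdown. The log2 fold change was -0.95 ± 0.37 (edgeR, adjusted p = 0.145), and -1.03 ± 0.28 with the replicate block (adjusted p = 0.0526). In the Fam60a knockdown Plagl1 gave 16.0, 17.1 and 7.59 CPM, which spans the controls (-0.09 ± 0.36, adjusted p = 0.984).

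Nnat, a small membrane protein gene of the developing brain, gave 5.05, 3.18 and 3.43 CPM in controls, 1.51, 2.82 and 2.21 CPM in Fam60a knockdown cells and 2.59, 2.41 and 0.812 CPM in Sin3a knockdown cells. Both knockdowns lay wholly below control. The log2 fold changes were -0.82 ± 0.41 (edgeR, adjusted p = 0.395) and -0.89 ± 0.42 (adjusted p = 0.228). The neural marker sums given with Ddc stand beside this gene too, and their part was not tested.

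Nap1l5, a nucleosome assembly family gene inside an intron of another gene, gave 1.47, 0.867 and 0.596 CPM in controls and 4.42, 1.86 and 3.25 CPM in the Sin3a knockdown. That is a log2 fold change of 1.70 ± 0.61 (edgeR, adjusted p = 0.114) on 19 reads over the controls and 47 over the Sin3a knockdown. The Fam60a knockdown gave 1.51, 1.80 and 0.316 CPM (0.34 ± 0.63, adjusted p = 0.95).

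Zrsr1, a retrocopy of a splicing factor gene inside Commd1, gave 50.0, 39.9 and 42.2 CPM in controls, 39.3, 42.7 and 36.4 CPM in Fam60a knockdown cells and 38.3, 35.1 and 29.2 CPM in Sin3a knockdown cells. Only the last lay wholly below control, at -0.36 ± 0.17 (edgeR, adjusted p = 0.225), against -0.16 ± 0.17 (adjusted p = 0.831) in the Fam60a knockdown. Reads of a retrocopy can be shared with its parent gene, so this level is uncertain. Impact, a regulator of translation under amino acid starvation, gave 178, 153 and 166 CPM in controls, 171, 150.3 and 166 CPM in Fam60a knockdown cells and 150.0, 142 and 64.2 CPM in Sin3a knockdown cells. Its log2 fold change was -0.03 ± 0.26 (edgeR, adjusted p = 0.995) and -0.47 ± 0.26 (adjusted p = 0.303), and Sin3a knockdown replicate 3 was far the lowest library.

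The remaining tested genes kept their groups overlapping in both comparisons with control. Trappc9, a trafficking complex gene imprinted in the brain, stayed between 92.5 and 108 CPM in all 9 libraries, with a mean of 101 CPM in each group and log2 fold changes of 0.01 ± 0.11 and 0.00 ± 0.11. Meg3, the maternal noncoding RNA of the Dlk1 cluster, ranged over 122 to 252 CPM across all 9 libraries, with fold changes of 0.20 ± 0.27 and 0.13 ± 0.27 on the log2 scale. Dlk1, the paternal Notch-related ligand of that cluster, ranged over 10.8 to 22.6 CPM (-0.28 ± 0.28 and -0.09 ± 0.28). Zdbf2 ranged over 102 to 309 CPM (-0.03 ± 0.35 and -0.17 ± 0.35). Gnas, the stimulatory G protein gene whose promoters differ in parental origin, ranged over 137 to 172 CPM in 8 libraries and reached 296 CPM in Sin3a knockdown replicate 3 (-0.07 ± 0.23 and 0.32 ± 0.23).

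At the other end, Rasgrf1, a neuronal exchange factor gene, had 0 reads in every library. Exact Clopper-Pearson 95% intervals of 0 reads reach up to 0.188, 0.180 and 0.251 CPM, unscaled, in controls, Fam60a knockdown and Sin3a knockdown. Dcn, a proteoglycan gene of fibroblasts imprinted in the placenta, had 4 reads in control replicate 2 and 0 in the other libraries.

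Calls by parental allele were few in each class, as they were among all genes. Of all tested genes, 1.49% rose and 1.44% fell in the Fam60a knockdown, and 3.91% rose and 6.28% fell in the Sin3a knockdown. Of 16 tested paternally expressed genes, 0 rose and 1 fell in the Fam60a knockdown, and 1 rose and 2 fell in the Sin3a knockdown. Their median log2 fold changes were -0.06 and -0.13. Of 13 tested maternally expressed genes, 0 rose and 0 fell in the Fam60a knockdown, and 0 rose and 1 fell in the Sin3a knockdown, with medians of -0.12 and 0.00. The spread was wide in each class in the Sin3a knockdown, from -2.09 to 1.70 among paternal and from -1.37 to 0.38 among maternal genes. Whether the classes differ was not tested.

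Of the machinery that sets or keeps imprints, 1 gene passed the test. Of 28 tested genes among imprint regulators, methyltransferases, TET enzymes and chromatin partners, 0 rose and 0 fell in the Fam60a knockdown (1.49% and 1.44% of all genes). In the Sin3a knockdown 1 gene rose and 0 fell, where 3.91% of all genes rose and 6.28% fell. That gene was Dnmt3b, a de novo DNA methyltransferase, at 245 ± 44.3 CPM in controls, 331 ± 33.6 CPM in Fam60a knockdown cells and 375 ± 50.2 CPM in Sin3a knockdown cells (log2 fold change 0.61 ± 0.16, edgeR, adjusted p = 0.0396). Between the knockdowns 0 rose and 0 fell (0.878% and 2.18% of all genes). The list's medians were -0.07 and 0.01 against control and 0.20 between the knockdowns. Without Sin3a knockdown replicate 3 the counts were 1 higher and 2 lower, 4 higher and 1 lower, and 3 higher and 0 lower. In that setting 16.9%, 24.5% and 14.7% of all genes were called in either direction.

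Among 32 other tested genes reported as imprinted, the calls against control with all libraries were of lower levels, while leaving out Sin3a knockdown replicate 3 also gave higher ones. In the Fam60a knockdown 0 rose and 1 fell (1.44% of all genes fell), Atp10a, a phospholipid flippase gene near Ube3a, from 18.1 ± 2.08 to 6.18 ± 0.93 CPM (log2 fold change -1.55 ± 0.27, edgeR, adjusted p = 0.0222). In the Sin3a knockdown 0 rose and 5 fell, where 6.28% of all genes fell. Atp10a fell to 2.99 ± 0.95 CPM (-2.57 ± 0.30, adjusted p = 0.00227). Dhcr7, the last enzyme of cholesterol synthesis, fell from 98.7 ± 8.38 to 54.3 ± 3.02 CPM (-0.86 ± 0.16, adjusted p = 0.0115).

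Tspan32, a tetraspanin gene of the Kcnq1 domain, fell from 14.7 ± 0.27 to 1.63 ± 1.29 CPM (-3.03 ± 0.57, adjusted p = 0.0129). The Fam60a knockdown had 10.4 ± 5.42 CPM of Tspan32, and it was the 1 gene of this list called between the knockdowns (-2.54 ± 0.56, adjusted p = 0.0496). The other 2 that fell, named after their values were seen, were Begain (-1.87 ± 0.39, adjusted p = 0.0195) and Dio3 (-2.57 ± 0.65, adjusted p = 0.0371), both of the Dlk1 cluster, in which the tested members Dlk1 and Meg3 were not called. The list's median log2 fold changes were -0.17 and -0.01 against control and -0.06 between the knockdowns. Without Sin3a knockdown replicate 3, 3 rose and 5 fell, 5 rose and 7 fell, and 2 rose and 5 fell. Of all genes, 16.9%, 24.5% and 14.7% were called in either direction in those 3 comparisons.

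The values of Sin3a knockdown replicate 3 followed transcript GC content among imprinted genes as among all genes. Its deviation from the mean of replicates 1 and 2, in log2 CPM, had a median of -0.88 over genes whose longest transcript has a GC content at or under 45.3% and of 0.61 over genes at or over 54.9%. These limits are the quartiles of 14126 tested genes. Of 9 imprinted genes at or under the lower limit, 7 lay below 0, with a median of -1.18. Of 9 at or over the upper limit, 6 lay above 0, with a median of 0.43. Sgce (-2.01) and Ube3a (-1.23) are among the AT-rich genes that were low, and Tssc4 (1.28), Ascl2 (1.01) and Gnas (0.90) among the GC-rich genes that were high. Igf2, Slc22a18 and Nnat were GC-rich and low in that library, at -1.29, -1.37 and -1.31, and Peg3 was at 0.29.

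**Figure D5:**
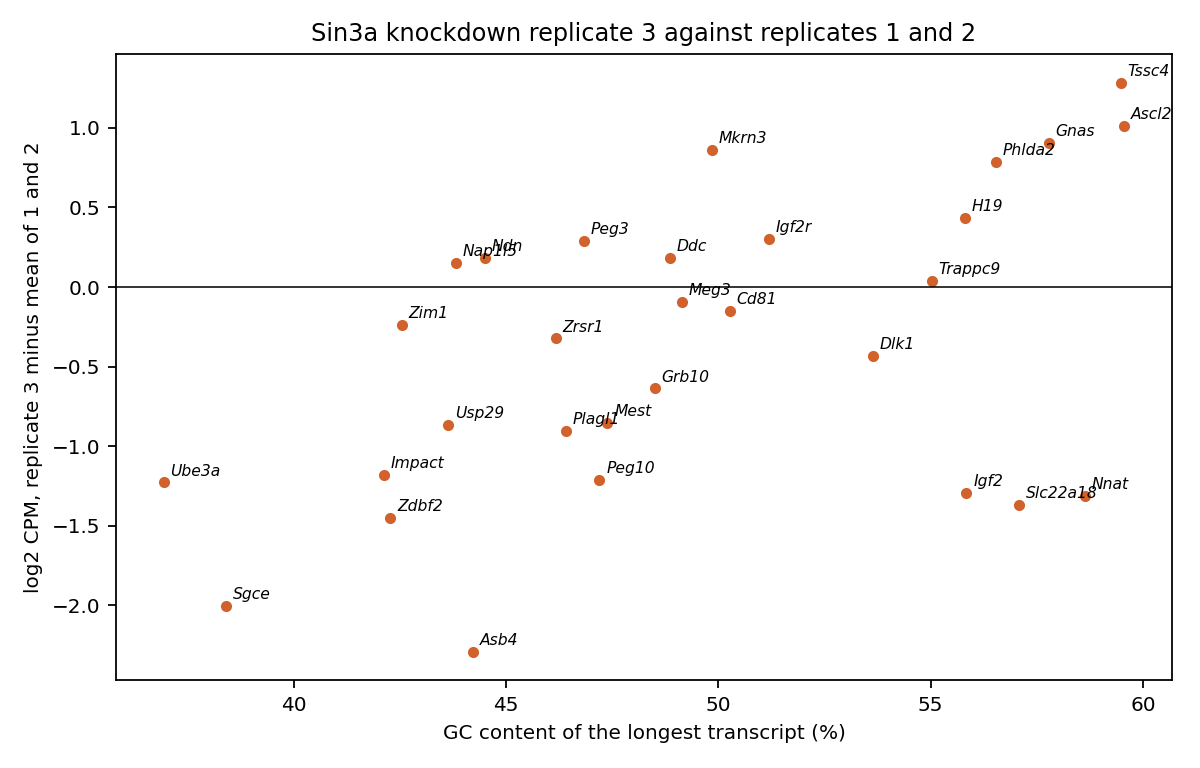
Deviation of Sin3a knockdown replicate 3 from the mean of replicates 1 and 2 (log2 CPM) against the GC content of the longest transcript (percent), 1 point per tested imprinted gene. Points tend to lie lower on the left, such as Sgce at -2.01, and higher on the right, such as Tssc4 at 1.28, with Igf2, Slc22a18 and Nnat low on the right.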

How the data were processed

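Total RNA of 9 libraries (3 controls, 3 Fam60a knockdown, 3 Sin3a knockdown) was prepared with a stranded TruSeq kit and read as single ends of 50 bases, per the labels' protocols. The authors deposited 1 table per library of whole-number read counts per Ensembl gene. These were made with STAR 2.4.0j, Picard, featureCounts and Subread per the submitters' processing notes, and per the file headers with duplicate reads removed, which can compress the counts of abundant genes. The deposited tables are marked as counted with the reverse-strand setting. The build and annotation used for counting are not given in the sources used here. Libraries titled neither Fam60a nor Sin3a were taken as controls by elimination.

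The deposited genes were matched by identifier to GENCODE M21 on GRCm38 (32918 of 37990 genes, 99.3% to 99.4% of reads), which gave symbols, positions and exon lengths. Genes kept by filterByExpr were fitted in 1 model of 3 groups over 9 libraries with edgeR 4.0.16 (R 4.3.3), trimmed mean of M-values scaling and robust quasi-likelihood F-tests, tested on simulated data first. Every adjusted p comes from this test with Benjamini-Hochberg adjustment over 14465 genes unless another tool or fit is named. Each refit was adjusted over its own tested genes, such as 14735 without Sin3a knockdown replicate 3. The SE of a fold change is its size divided by the square root of its F statistic. Log CPM used a prior count of 2. Intervals cover counting error only.

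Deviations from the group means, compared across genes, correlated at 0.178 to 0.622 for the 9 library pairs that share a number and at -0.448 to 0.113 for the 18 that do not, so the replicate numbers were taken to pair the samples. The labels say nothing of shared handling. Alternatives were DESeq2 1.42.0, its size factors, no filter, the replicate block, only the 6 libraries compared, and leaving out each library. The imprinted genes and all lists were chosen with earlier results of these data known. Genes that passed the test or whose libraries did not overlap were to be given in full, and up to 3 per direction of the other lists.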

Additional observations from a re-analysis of the deposited data

Results flagged for a closer look

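Peg3 differed between the knockdowns. It was higher in the Sin3a than in the Fam60a knockdown by 1.28 ± 0.14 on the log2 scale (edgeR's quasi-likelihood test of the difference itself, adjusted p = 0.00632), and higher in all 3 replicate numbers. The result stands out because the Sin3a knockdown moved Peg3 by 1.30 from control while the Fam60a knockdown moved it by 0.02. Usp29, which starts 147 bases away, differed between the knockdowns by 1.15 ± 0.48 (adjusted p = 0.285).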

How the results depend on the processing

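Over 90 fold changes of imprinted genes and 14 alternatives, 1219 refits kept their side of the threshold, 19 lost a call and 19 gained one. Of 1154 refits without a call in either fit, 73 had the other sign. The 1 reversal was Tssc4 between the knockdowns, at -0.30 without Sin3a knockdown replicate 3 against 0.26 with all libraries, and up to 0.53 without Sin3a knockdown replicate 2. Scaling with DESeq2's size factors moved 0 of 35 levels by more than the replicate spread.

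Counts of calls depended on the fit. In the Fam60a knockdown 1 imprinted gene and 423 genes in all were called, against 2 and 1174 with DESeq2, and 4 and 1827 on only the 6 libraries compared. Leaving out 1 library gave 0 to 5 imprinted genes and 11 to 2495 genes in all. The 0 came without control replicate 1 and without Fam60a knockdown replicate 2, where 3 imprinted genes each had an unadjusted edgeR p under 0.05. In the Sin3a knockdown 4 and 1475 became 6 and 2515 with DESeq2 and 2 and 739 on the 6 libraries, with 1 to 9 and 521 to 3606 on leaving out 1 library. Between the knockdowns 1 and 443 became 2 and 1296 with DESeq2 and 0 and 0 with edgeR on the 6 libraries (2 and 1760 at an unadjusted p under 0.05), with 1 to 5 and 48 to 2166 on leaving out 1 library. The highest count of genes in all came without Sin3a knockdown replicate 3 in each comparison, and the lowest without control replicate 1, control replicate 2 and Fam60a knockdown replicate 2 in turn. The cause was not tested. With the replicate block, which follows the pairing, 887, 2164 and 672 genes were called in the 3 comparisons, and the call of 1 imprinted gene changed, Slc22a18 in the Sin3a knockdown. The block changed no other call of an imprinted gene. Usp29, Nap1l5 and Magel2 held 1 to 29 reads per library, which limits their precision. Usp29 with all libraries, and Magel2 without Sin3a knockdown replicate 3, entered the test only through their control libraries.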
